A study of Mus musculus with 36 samples.

Results

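Cytochrome P450 families 1 to 3 (symbols Cyp1, Cyp2 and Cyp3) were followed in liver and in eWAT, the white fat depot that lies along the epididymis, of male mice on 3 diets. The members were all protein-coding mouse genes whose symbol is Cyp, then 1, 2 or 3, then 1 letter and digits, in the GENCODE M21 annotation of the GRCm38 genome. The rule gave 58 genes, of which 38 were measured in liver, 20 in eWAT, 17 in both tissues and 41 in at least 1, out of 17536 genes measured in either tissue. The remaining 17 were not analysed here: Cyp2a4, Cyp2b13, Cyp2b19, Cyp2b23, Cyp2b9, Cyp2c65, Cyp2c66, Cyp2d34, Cyp2j11, Cyp2j12, Cyp2j13, Cyp2j7, Cyp2j8, Cyp2w1, Cyp3a16, Cyp3a44 and Cyp3a57. All mice were wild-type C57BL/6 males of the founder generation (F0) killed at 24 weeks of age, after chow until 6 weeks. HF mice then received a high-fat diet for 18 weeks, HFLF mice a high-fat diet for 9 weeks and afterwards a low-fat diet for 9 weeks, and LF mice a low-fat diet for 18 weeks. Each diet had 6 RNA-seq libraries per tissue, and the labels do not say that each came from a separate mouse, so that the p-values cover the spread between these libraries. RNA came from the whole tissue, and fewer cells of a type and less RNA per cell cannot be told apart in such samples.

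P450 enzymes of these families sit in the endoplasmic reticulum and insert 1 atom of oxygen into drugs, steroids, fatty acids and other fat-soluble molecules, with electrons passed on by P450 reductase (Por) and cytochrome b5 (Cyb5a). The liver holds most of them, and many of its genes are under the control of the nuclear receptors CAR (Nr1i3) and PXR (Nr1i2), of the aryl hydrocarbon receptor AhR, of HNF4α (Hnf4a) and of the sex-specific pattern of growth hormone. Adipose tissue is known for Cyp2e1 and Cyp1b1.

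Levels are given as CPM, the usual unit of a gene's counts relative to its library's total, after TMM scaling, and levels of different genes are compared only as CPM per kilobase (kb) of exon. The libraries held 11662551 to 23295485 counts in liver and 8941798 to 31186477 in eWAT. The 10 hepatocyte markers (Alb, Ttr and others) summed to 84512.5 to 135445.0 CPM over all liver libraries, and the 8 adipocyte markers (Adipoq, Plin1 and others) to 13379.9 to 53945.5 CPM over all eWAT libraries. In liver, LF libraries 1 to 4 stood apart. Their 9 acute-phase and metallothionein genes (Saa1, Hp, Mt1 and others) summed to 27016.2 to 41102.6 CPM, against 9352.2 to 14204.5 in HF libraries, 11060.0 to 14048.5 in HFLF libraries and 14733.6 and 11465.2 in LF libraries 5 and 6. In eWAT, HF library 3, HFLF library 4 and LF libraries 3, 4 and 5 had the highest median level of hepatocyte markers, at 0.193% to 1.31% of their liver mean.

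In liver, Cyp2e1 was by far the most abundant of the 38 genes. Cyp2e1, which oxidizes ethanol, acetone and other small molecules, averaged 2804 CPM per kb over the 18 libraries and made up 42.3% of the summed level per kb. Cyp2d26 (563 CPM per kb), Cyp2d9 (558, a steroid hydroxylase that is higher in male liver), Cyp2f2 (463, an enzyme of periportal hepatocytes and of the club cells of the lung) and Cyp2d10 (370.2) came next. Cyp2d26 and Cyp2d9 did not differ beyond their spread. At the other end, 10 members lay below 1 CPM per kb, among them Cyp1a1, Cyp1b1, Cyp2c40, Cyp2g1 and Cyp2a22. The 38 genes together summed to 13738 to 21030 CPM (median 16498) in HF livers, 12928 to 16879 (median 14475) in HFLF livers and 10063 to 15749 (median 12631) in LF livers. The 3 ranges overlapped, and without Cyp2e1 the medians were 9685 in HF, 8197 in HFLF and 8237 in LF livers.

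High-fat feeding went with changes in both directions across the liver genes. In HF against LF livers, 20 of the 38 members changed (52.6%), 14 of them higher and 6 lower, at an adjusted p under 0.05 in edgeR's quasi-likelihood test over all 14052 genes. Of all genes 34.8% were called, 16.3% higher and 18.5% lower. The median log2 fold change was 0.32 over the members and 0.00061 over all genes. Without LF libraries 1 to 4 these medians were 0.071 and 0.015. With upper-quartile scaling, 16 of the 19 members called were higher and 3 lower, against 34.3% of all genes called, 21% higher and 13.3% lower. The groups of libraries did not overlap for 4 members, 3 higher and 1 lower, against 11% of all genes.

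The clearest rises were in family 3, whose enzymes oxidize steroids and many drugs. Cyp3a59 (chr5:146079257-146113287, plus strand) had 6.55 to 15.3 CPM (median 10.4) in HF livers, 2.18 to 9.61 (median 5.88) in HFLF livers and 2.15 to 4.14 (median 2.99) in LF livers. Cyp3a25 (chr5:145977194-146009618, minus strand) had 254 to 383 CPM (median 341) in HF livers, 185 to 368 (median 234) in HFLF livers and 116 to 213 (median 151) in LF livers. Every HF library of both genes lay above every LF library, and the HFLF libraries overlapped both. Cyp3a59 rose in HF against LF livers by a log2 fold change of 1.78 ± 0.29 (SE, edgeR adjusted p = 0.000364) and Cyp3a25 by 1.06 ± 0.18 (edgeR adjusted p = 0.00049). The pair are close relatives: 28.0% of the 50-base windows of Cyp3a59 transcripts and 26.8% of those of Cyp3a25 also occur in transcripts of other genes, so reads may be shared between them. Of the other family 3 genes, Cyp3a13, a form best known from the intestine, had 99.9 to 178 CPM (median 122) in HF livers and 119 to 246 (median 167) in LF livers and fell by 0.45 ± 0.16 on the log2 scale (edgeR adjusted p = 0.0396). Cyp3a11, the main PXR-induced form, spread most widely, with 87.2 to 767 CPM (median 225) in HF livers and 135 to 701 (median 556) in LF livers, and did not pass the test (log2 fold change -0.41 ± 0.49, edgeR adjusted p = 0.542).

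The promoters of the pair were nearly the same. In the RefSeq table of promoters (GRCm38.p6), which held 50 of the 58 members, the 300 bases from 250 before to 50 after the start differed at 11 positions between Cyp3a59 and Cyp3a25. The last 150 bases before the start are printed because these 2 genes moved together, with the 8 differing bases in capitals (chr5:146079108-146079257, plus strand, and chr5:146009618-146009767, minus strand).
Cyp3a59: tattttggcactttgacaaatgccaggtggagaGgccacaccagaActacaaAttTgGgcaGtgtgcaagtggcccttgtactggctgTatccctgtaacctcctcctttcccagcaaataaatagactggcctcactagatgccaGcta
Cyp3a25: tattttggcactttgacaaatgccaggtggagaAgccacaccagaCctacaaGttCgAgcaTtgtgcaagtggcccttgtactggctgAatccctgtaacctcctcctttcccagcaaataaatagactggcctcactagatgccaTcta

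**Figure D1:**
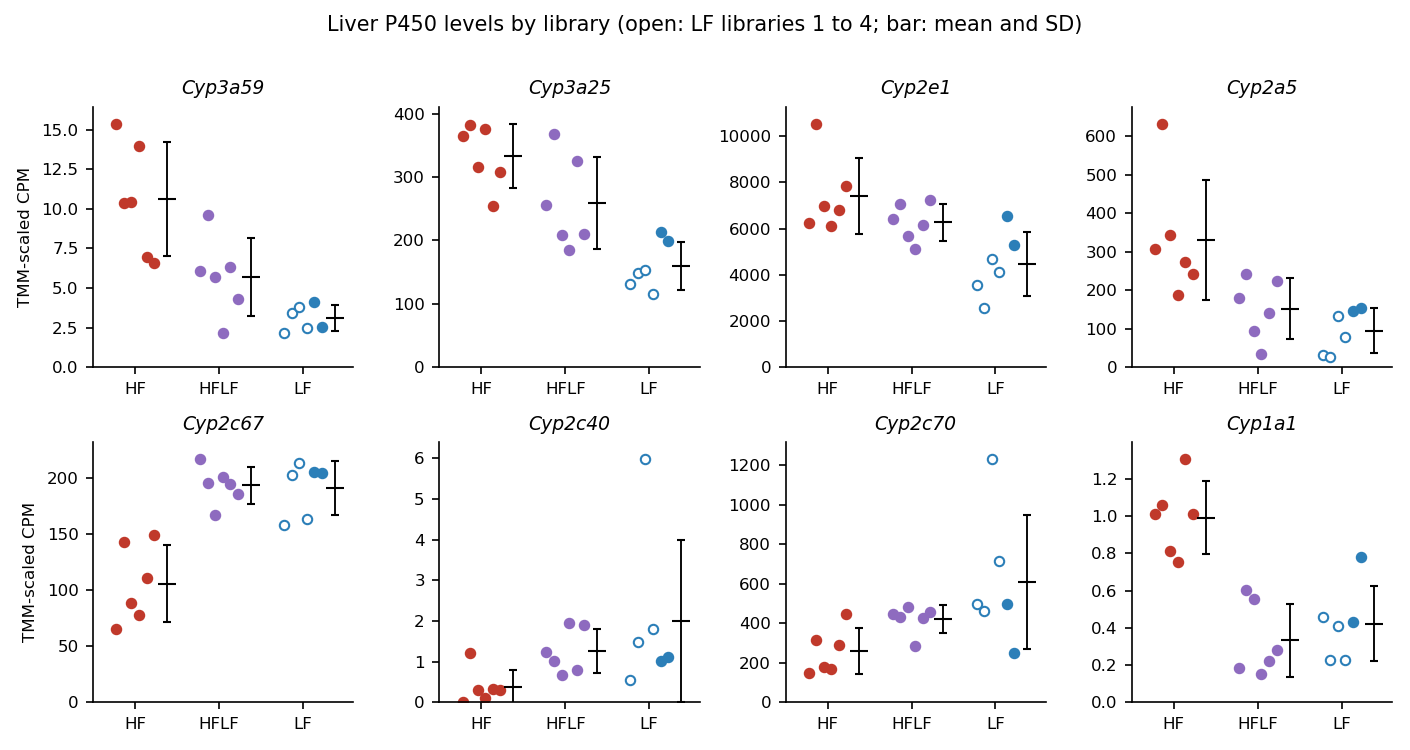
TMM-scaled CPM (y axis, linear from 0) of 8 liver P450 genes in the 6 HF, 6 HFLF and 6 LF libraries (points), with the mean and SD of each diet beside them; open points are LF libraries 1 to 4. HF points of Cyp3a59, Cyp3a25 and Cyp2a5 lie above all LF points, and those of Cyp2c67 lie below all LF and all HFLF points.

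Family 2 genes of subfamilies A, D, E, G and J rose where they changed. Cyp2a5, known as coumarin hydroxylase, had 187 to 631 CPM (median 289) in HF livers, 33.2 to 242 (median 160) in HFLF livers and 26.6 to 153 (median 106) in LF livers. HF and LF libraries did not overlap, and it rose by a log2 fold change of 1.80 ± 0.50 (edgeR adjusted p = 0.0116) in HF against LF livers. Its near relative Cyp2a4 was not analysed here, and 40.8% of the windows of Cyp2a5 are shared with other genes, most with Cyp2a4. Cyp2a22 had 0.596 to 13.97 CPM (median 4.25) in HF livers, 0.1502 to 1.27 (median 0.797) in HFLF livers and 0 to 1.02 (median 0.337) in LF livers. This low gene, which is higher in female than in male mouse liver, rose by 3.83 ± 0.78 (edgeR adjusted p = 0.0018) with overlapping groups. Cyp2g1, an enzyme of the olfactory mucosa, had 0.230 to 2.12 CPM (median 0.577) in HF livers and 0 to 0.586 (median 0.0279) in LF livers and rose by 2.56 ± 0.78 (edgeR adjusted p = 0.0172). Both low genes passed the authors' filter mainly through libraries of other diets than LF: Cyp2a22 was above 0.5 CPM in 6 HF, 4 HFLF and 2 LF libraries, and Cyp2g1 in 4, 4 and 1.

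Cyp2e1 and the called members of subfamilies D and J rose by less, and their HF and LF libraries overlapped. Cyp2e1 (chr7:140763739-140774987, plus strand) had 6103 to 10524 CPM (median 6896) in HF livers, 5108 to 7237 (median 6278) in HFLF livers and 2572 to 6547 (median 4394) in LF livers. It rose by a log2 fold change of 0.73 ± 0.18 in HF against LF livers (edgeR adjusted p = 0.00546). LF libraries 1 to 6 held 3576, 2572, 4667, 4121, 6547 and 5297 CPM of it. In subfamily D, 3 of 7 genes rose, against 16.3% of all genes. Cyp2d40 rose by 0.88 ± 0.19 (edgeR adjusted p = 0.00253) and Cyp2d26 by 0.56 ± 0.13 (edgeR adjusted p = 0.00343). Cyp2d22, often taken as the mouse counterpart of the human drug-metabolizing CYP2D gene, rose by 0.38 ± 0.13 (edgeR adjusted p = 0.0358). Cyp2d9, Cyp2d10, Cyp2d11 and Cyp2d12 did not pass the test, with log2 fold changes of 0.11 to 1.12. Cyp2j5, an arachidonic acid epoxygenase of liver and kidney, rose by 0.25 ± 0.09 (edgeR adjusted p = 0.0368), while Cyp2j6 (0.19) and Cyp2j9 (-0.19) did not pass the test.

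The promoter of Cyp2e1 is printed as that of the gene with the highest level in both tissues (100 bases before the RefSeq start, chr7:140763719-140763818, plus strand, GRCm38.p6), with the TATA box (TATAAA) in capitals. The RefSeq start lies downstream of the GENCODE start (140763739), so the box and most of the printed bases lie inside the gene span given above. This box begins 31 bases before the RefSeq start, and TATAAA occurred on either strand in the promoters of 26 of the 50 members and in 13.6% of all 32851 promoters in the table.
Cyp2e1: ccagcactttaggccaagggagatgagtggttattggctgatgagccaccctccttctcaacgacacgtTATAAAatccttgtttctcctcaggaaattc

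Family 1 holds the classical targets of AhR. Cyp1a1 had 0.752 to 1.31 CPM (median 1.01) in HF livers, 0.1502 to 0.604 (median 0.251) in HFLF livers and 0.227 to 0.781 (median 0.420) in LF livers. These were 13 to 22 counts per HF library and 4 to 14 per LF library. Cyp1a1 was above 0.5 CPM in 6 HF, 2 HFLF and 1 LF libraries, so it was measured through the diet in which it was higher, and its calls are not independent of that filter. It rose by a log2 fold change of 1.21 ± 0.32 in HF against LF livers (edgeR adjusted p = 0.0078). Cyp1a2, which hepatocytes express without an inducer, had 149 to 521 CPM (median 361) in HF livers and 258 to 400 (median 314) in LF livers and did not pass the test (log2 fold change 0.13 ± 0.23, edgeR adjusted p = 0.687). Cyp1b1, mostly expressed outside the liver, had 0.438 to 2.44 CPM (median 0.896) in HF livers and 0.502 to 2.05 (median 1.66) in LF livers (log2 fold change -0.30 ± 0.40, edgeR adjusted p = 0.587). Of 6 AhR targets listed outside the family, 4 were measured. In HF against LF livers 2 of them rose (Nqo1 by 1.29, Ugt1a6a by 0.92) and Tiparp fell by 1.08. Of all genes 16.3% were higher and 18.5% lower, and the activity of AhR was not tested.

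The Cyp2c genes, which make epoxides and alcohols from arachidonic acid and oxidize steroids and retinoids, moved in both directions along their cluster on chromosome 19. Of the 13 measured in liver, 5 fell and 3 rose in HF against LF livers, against 18.5% and 16.3% of all genes. Along the chromosome, Cyp2c38 and Cyp2c39 were higher, the next 4 measured genes, Cyp2c67, Cyp2c68, Cyp2c40 and Cyp2c69 (chr19:39608842-39886799, all on the minus strand), were lower, Cyp2c50 was higher and Cyp2c70 was lower. Cyp2c37 and Cyp2c54, between Cyp2c69 and Cyp2c50, had log2 fold changes of 0.56 ± 0.30 and 0.68 ± 0.41 and did not pass the test. Cyp2c55, Cyp2c29 and Cyp2c23, at the 2 ends, did not pass it either.

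Cyp2c67 had 65.5 to 149 CPM (median 100.03) in HF livers, 167 to 217 (median 195) in HFLF livers and 158 to 214 (median 204) in LF livers. All HF libraries lay below all LF and all HFLF libraries, and it fell by 0.86 ± 0.16 on the log2 scale in HF against LF livers (edgeR adjusted p = 0.00116). Cyp2c68 had 33.2 to 106 CPM (median 44.1) in HF livers, 62.8 to 106 (median 89.8) in HFLF livers and 66.5 to 124 (median 88.1) in LF livers, and fell by 0.69 ± 0.25 (edgeR adjusted p = 0.0372). Cyp2c40 and Cyp2c69, which are higher in female mouse liver, were near the lower limit of detection. Cyp2c40 had 0 to 1.21 CPM (median 0.305) in HF livers, 0.680 to 1.95 (median 1.12) in HFLF livers and 0.563 to 5.97 (median 1.29) in LF livers, and fell by 2.37 ± 0.66 (edgeR adjusted p = 0.0105). Cyp2c69 fell by 1.87 ± 0.70 (edgeR adjusted p = 0.0451). It was above 0.5 CPM in 2 HF, 5 HFLF and 4 LF libraries, and Cyp2c40 in 1, 6 and 6, so both were measured mainly through the diets in which they were higher. These 4 genes are near copies of each other: 52.8% of the windows of Cyp2c67, 43.3% of Cyp2c68, 72.1% of Cyp2c40 and 54.8% of Cyp2c69 also occur in other genes, and how the authors' counting divided such reads is not stated in these sources.

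Cyp2c70, which makes the muricholic acids of mouse bile, shares no window with another gene. It had 148 to 448 CPM (median 236) in HF livers, 285 to 485 (median 439) in HFLF livers and 248.9 to 1230 (median 499.6) in LF livers. It fell by 1.24 ± 0.33 on the log2 scale in HF against LF livers (edgeR adjusted p = 0.00837), with overlapping groups. The 3 Cyp2c genes that rose also had overlapping groups. Cyp2c50 had a median of 412 CPM in HF livers and 266 CPM in LF livers and rose by 0.71 ± 0.26 (edgeR adjusted p = 0.0404). Cyp2c38 had a median of 41.2 CPM in HF livers and 12.03 CPM in LF livers and rose by 1.55 ± 0.57 (edgeR adjusted p = 0.0456). Cyp2c39, a retinoic acid hydroxylase, had a median of 1.90 CPM in HF livers and 0.434 CPM in LF livers, rose by 1.98 ± 0.58 (edgeR adjusted p = 0.0142) and was above 0.5 CPM in 5 HF, 5 HFLF and 2 LF libraries.

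**Figure D2:**
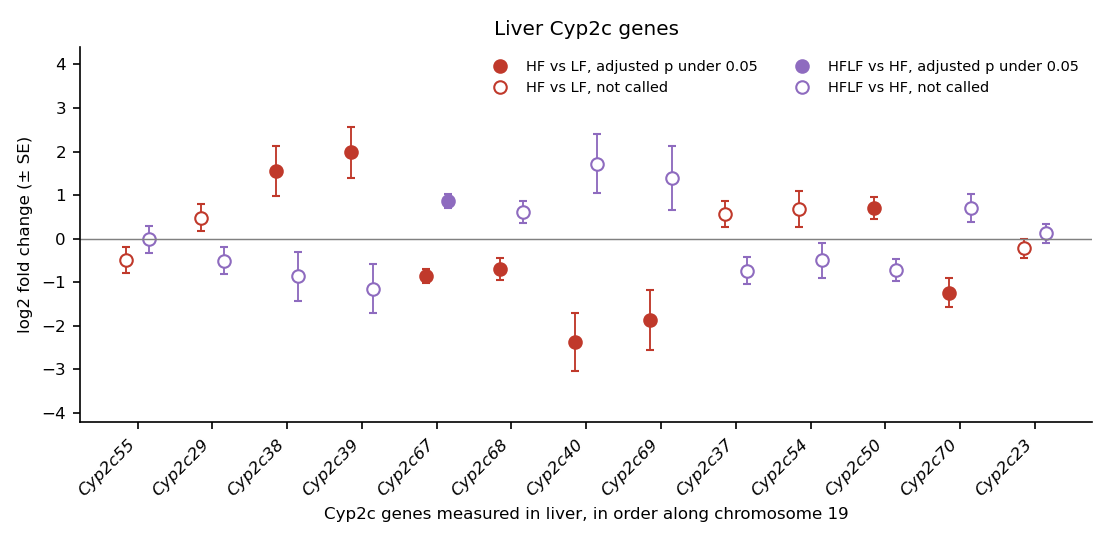
Log2 fold change ± SE (y axis) of the 13 Cyp2c genes measured in liver, in their order along chromosome 19 (x axis), for HFLF against HF and HF against LF livers; filled points have an edgeR adjusted p under 0.05. In HF against LF livers Cyp2c67, Cyp2c68, Cyp2c40, Cyp2c69 and Cyp2c70 lie below 0 and Cyp2c38, Cyp2c39 and Cyp2c50 above it.

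The 5 Cyp2c genes that fell also had a sequence in common, singled out after their values were seen. Each holds CAAAGTCCA, a form of the HNF4α site, on its sense strand 45 to 125 bases before its start, and none of the 6 other measured Cyp2c genes in the promoter table (Cyp2c29, Cyp2c37, Cyp2c38, Cyp2c39, Cyp2c50 and Cyp2c55) holds it on either strand within 250 bases before to 50 after the start. Among all members 8 of 50 hold it, and 0.475% of all promoters of that length do. Cyp3a11 also holds it, 109 bases before its start, and did not pass the test in HF against LF livers. The remaining holders, Cyp2c65 and Cyp3a16, were not analysed here. The site is printed in capitals with 30 bases before it and 31 after it (RefSeq, GRCm38.p6, minus strand, with starts as RefSeq gives them). The windows are chr19:39649128-39649197 for Cyp2c67, chr19:39741139-39741208 for Cyp2c68, chr19:39812820-39812889 for Cyp2c40, chr19:39886805-39886874 for Cyp2c69 and chr19:40187311-40187380 for Cyp2c70.
Cyp2c67: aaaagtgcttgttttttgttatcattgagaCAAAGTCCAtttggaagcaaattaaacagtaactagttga
Cyp2c68: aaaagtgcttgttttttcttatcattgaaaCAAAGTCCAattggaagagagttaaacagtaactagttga
Cyp2c40: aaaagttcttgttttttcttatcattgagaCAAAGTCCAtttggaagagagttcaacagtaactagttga
Cyp2c69: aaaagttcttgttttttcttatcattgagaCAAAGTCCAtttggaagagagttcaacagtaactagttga
Cyp2c70: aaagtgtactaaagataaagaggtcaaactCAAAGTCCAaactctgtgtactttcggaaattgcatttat

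The windows of Cyp2c40 and Cyp2c69 were identical over their 70 bases, and those of Cyp2c67 and Cyp2c68 matched them at 64 and 66 bases. That of Cyp2c70 matched the other 4 at only 23 or 24 bases, the site included. The site was 1 of 9 motifs searched on both strands, and the match is a description of these sequences. The other motifs were GCGTG (AhR core, in 9 of 50 members and 32.4% of all promoters), TTCNNNGAA (STAT5, 2 of 50 and 8.3%), CCAAT (22 of 50 and 37.4%), TATAAA, the D-box forms TTATGTAA (0 of 50 and 0.938%) and TTATGCAA (5 of 50 and 0.743%), and the DR4 direct repeats of AGTTCA and of AGGTCA (0 of 50 each, 0.0122% and 0.0152%). No motif of the list contains another. Hnf4a RNA fell by 0.66 ± 0.10 on the log2 scale in HF against LF livers (edgeR adjusted p = 0.000263). In HFLF against HF livers its log2 fold change was 0.12 ± 0.10 (edgeR adjusted p = 0.532). The part of Hnf4a in the values of the Cyp2c genes was not tested.

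Lists of genes that act on P450s, and classes of members, held calls in HF against LF livers, where 34.8% of all genes were called, 16.3% higher and 18.5% lower. None of the counts was tested against those shares. Of 17 receptors and factors of P450 genes, 3 rose and 4 fell, and Nr1i3 rose most among them, by 2.05 ± 0.35 (edgeR adjusted p = 0.000609). Nr1i3 had 125 to 255 CPM (median 141) in HF livers, 51.3 to 149 (median 68.1) in HFLF livers and 16.9 to 69.5 (median 35.5) in LF livers. Of the 9 measured members known as CAR or PXR targets, 3 rose (Cyp2a5, Cyp2c50, Cyp3a25) and 1 fell (Cyp3a13). Of 9 such targets outside the family, Abcc3 (1.88) and Abcc2 (0.33) rose and Ces2a fell by 0.43. Of 7 redox partners, Cyb5a rose by 0.51 ± 0.11 (edgeR adjusted p = 0.00191) and Pgrmc1 by 0.31, and Por had a log2 fold change of 0.40 ± 0.22 (edgeR adjusted p = 0.162). Of 9 genes of heme supply and breakdown, Alad and Cpox rose, and Fech and Hmox1, which breaks heme down, fell. Of 22 genes of other P450 families 5 rose and 3 fell. Of the 8 members known from perivenous hepatocytes 3 rose (Cyp2e1, Cyp2c50, Cyp2a5). Of 8 perivenous markers outside the family 3 rose (Glul, Rhbg and Lect2). Cyp2f2, the periportal member, had 651 to 1156 CPM (median 806) in HF livers and 969 to 1214 (median 1059.7) in LF livers and did not pass the test (log2 fold change -0.34 ± 0.13, edgeR adjusted p = 0.0523). Of the 10 hepatocyte markers, 6 were lower in HF than in LF livers.

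Abundant and widely studied members without a call in HF against LF livers were these. Cyp2d9 had 1140 to 1975 CPM (median 1730) in HF livers and 1135 to 1559 (median 1241) in LF livers (log2 fold change 0.31 ± 0.13, edgeR adjusted p = 0.0775). Cyp2d10 had 507 to 695.5 CPM (median 656) in HF livers and 528 to 741 (median 576) in LF livers (0.11 ± 0.10, edgeR adjusted p = 0.398). Cyp2c29, a CAR target, had 306 to 726 CPM (median 431) in HF livers and 204 to 568 (median 283) in LF livers (0.48 ± 0.30, edgeR adjusted p = 0.228). All 3 had overlapping groups, as did Cyp2c55 (-0.49 ± 0.30), Cyp2u1 (0.38 ± 0.28), Cyp2r1 (-0.14 ± 0.10) and Cyp2a12, a bile acid hydroxylase (0.32 ± 0.13). Of 12 members known to be higher in female mouse liver, 4 were measured. Cyp2a22 and Cyp2g1 were higher and Cyp2c40 and Cyp2c69 lower in HF against LF livers, where 34.8% of all genes were called. These 4 low genes passed the authors' filter mainly through diets in which they were higher, so their calls are not independent of it.

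The calls against LF livers depended on LF libraries 1 to 4. Without them 0 of the 38 members and 2.11% of all genes passed edgeR's test in HF against LF livers. An unadjusted p under 0.05 was reached by 9 members and by 2766 of 14052 genes. That fit keeps only 2 LF libraries. Log2 fold changes were then 1.67 ± 0.47 for Cyp3a59, 0.70 ± 0.24 for Cyp3a25, 1.15 ± 0.60 for Cyp2a5, 1.04 ± 0.27 for Cyp2d40 and -0.95 ± 0.23 for Cyp2c67. They were 0.33 ± 0.20 for Cyp2e1, 0.22 ± 0.13 for Cyp2d26, -0.53 ± 0.37 for Cyp2c70 and 0.036 ± 0.15 for Cyp3a13. For 15 of 38 members (39.5%), LF libraries 1 to 4 all lay below LF libraries 5 and 6, against 14.3% of all genes. They all lay above for 1 member (2.63%), against 14.7% of all genes. All 9 acute-phase genes were lower in HF than in LF livers (median log2 fold change -3.06), and their part in the P450 values was not tested.

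**Figure D3:**
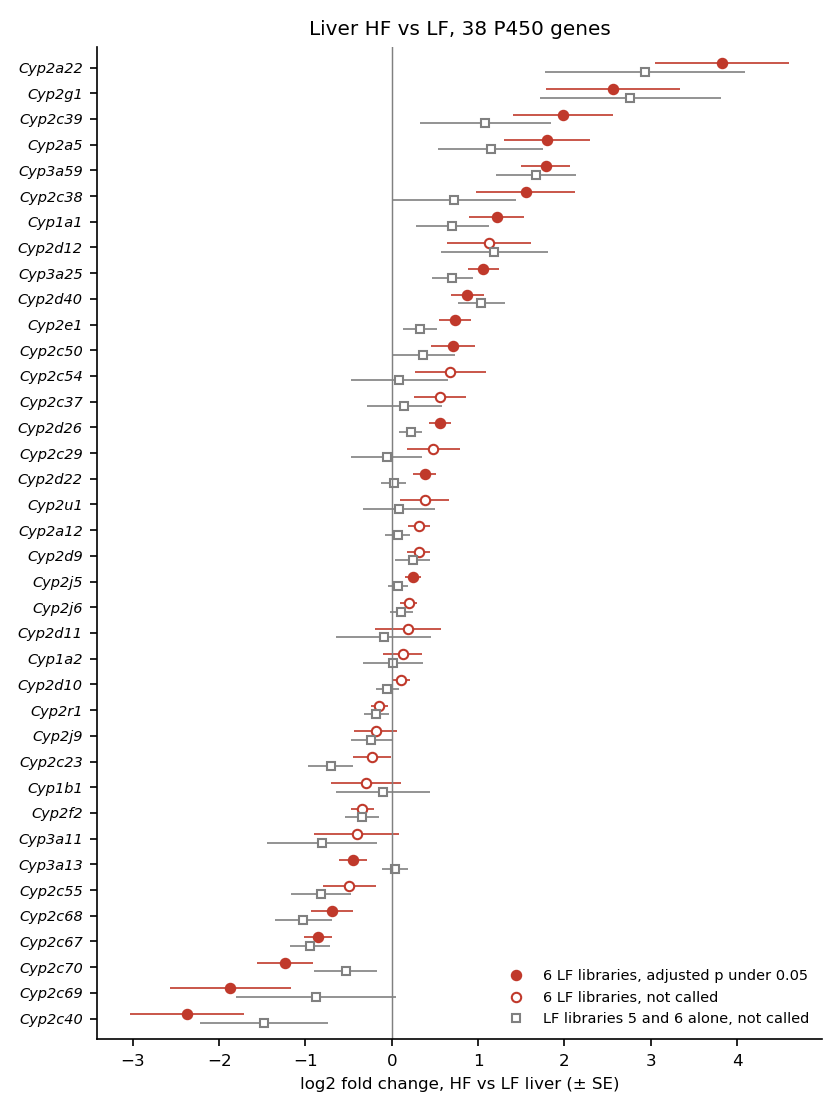
Log2 fold change ± SE (x axis) of the 38 liver P450 genes (rows, ordered by it) in HF against LF livers, with all 6 LF libraries (circles, filled where the edgeR adjusted p was under 0.05) and with LF libraries 5 and 6 alone (squares). Cyp3a59, Cyp2d40 and Cyp2c67 keep nearly the same value, and Cyp2e1, Cyp2c70 and Cyp3a13 move toward 0.

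Single libraries also ended calls in HF against LF livers. Cyp2c38 (log2 fold change 1.29 to 1.91 over fits that leave out 1 library) lost its call without any of LF libraries 1 to 4 or HF libraries 1 to 4, and Cyp2c50 (0.55 to 0.83) without any of LF 1 to 4 or HF 2 to 6. Cyp2c68 (-0.98 to -0.58) lost it without LF 3, 5 or 6 or HF 1, 3, 4 or 5, and Cyp2c69 (-2.78 to -1.29) without LF 2, 3 or 4 or HF 1, 3, 4 or 6. Cyp2d22 (0.31 to 0.49) lost it without LF 1, 2, 3 or 4 or HF 2, 3 or 6, and Cyp2j5 (0.20 to 0.30) without LF 1, 2 or 4 or HF 2, 3 or 6. Cyp3a13 (-0.56 to -0.33) lost it without LF 2, 3 or 4 or HF 1, 2, 3, 4 or 6, and Cyp2g1 (1.91 to 4.00) without HF 2. The other 12 members called in HF against LF livers passed the test in each of these 12 fits.

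After 9 weeks back on a low-fat diet, few liver P450 genes differed from LF livers. In HFLF against LF livers 4 of 38 members changed (10.5%), 3 higher and 1 lower, against 22.6% of all genes, 10.2% higher and 12.4% lower. Cyp3a25 (0.69 ± 0.18, edgeR adjusted p = 0.0108), Cyp3a59 (0.89 ± 0.29, edgeR adjusted p = 0.0341) and Cyp2g1 (2.37 ± 0.80, edgeR adjusted p = 0.0403) were higher, and Cyp3a13 was lower by a log2 fold change of -0.68 ± 0.16 (edgeR adjusted p = 0.0075). Cyp3a13 had 99.8 to 121 CPM (median 110) in HFLF livers, against 119 to 246 (median 167) in LF livers. Groups of libraries did not overlap for 0 members, against 6.15% of all genes. Only 2 members were called without LF library 1, 2 or 4 or without HFLF library 1, 2 or 3. Of 14052 genes, 2130 to 2656 were called in those fits. Cyp2g1 (2.08 to 3.81) lost its call without LF 1, 2, 4 or 6 or HFLF 1, 2, 3 or 6, and Cyp3a59 (0.67 to 1.05) without LF 1, 2, 4 or 6 or HFLF 1, 2, 3 or 5. Without LF libraries 1 to 4, 0 members and 0.185% of all genes passed, with 3 members and 2031 of 14052 genes at an unadjusted p under 0.05.

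HFLF and HF livers differed in 3 of 38 members (7.89%), against 5.23% of all genes, and 1 of them was higher and 2 lower, against 2.18% and 3.05% of all genes. Cyp2c67 rose by a log2 fold change of 0.87 ± 0.16 in HFLF against HF livers (edgeR adjusted p = 0.00878), and every HFLF library lay above every HF library. Cyp1a1 was lower by a log2 fold change of -1.49 ± 0.34 (edgeR adjusted p = 0.0207), with every HFLF library below every HF library. Such separation held for 2 members, against 3.86% of all genes, and Cyp1a1 passed the authors' filter through its 6 HF libraries. Cyp2a22 was lower by -3.00 ± 0.74 on the log2 scale (edgeR adjusted p = 0.029). It too was above 0.5 CPM in every HF library, so its call is not independent of that filter. The call of Cyp1a1 (-1.77 to -1.36) was lost without HFLF library 6, and that of Cyp2a22 (-3.24 to -2.55) without HF 1, 2 or 4 or HFLF 3, 4, 5 or 6. The number called was 1 without HFLF library 6, against 256 of 14052 genes, and 5 without HFLF library 2, against 723. It was 6 with DESeq2, against 9.99% of all genes, and 11 with limma voom and quality weights, against 12.3%. It was 5 in the fit without LF libraries 1 to 4, against 9.64% of all genes, with Cyp2a12 (-0.35) and Cyp2d26 (-0.42) lower besides the 3. With all libraries, 13 members and 3152 of 14052 genes had an unadjusted p under 0.05 in edgeR. Cyb5a, which rose in HF against LF livers, was lower in HFLF than in HF livers (-0.51 ± 0.11, edgeR adjusted p = 0.0146), and these comparisons share the HF libraries.

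In eWAT, 20 members were measured and Cyp2e1 made up 94.5% of their summed level per kb. It averaged 1079 CPM per kb over the 18 libraries, against 18.9 for Cyp2d22, 12.3 for Cyp2f2, 9.58 for Cyp1b1 and 7.21 for Cyp2j6, the next in order. The 15 others lay between 0.13 and 3.53. In HF against LF eWAT 9 of 20 members changed (45%), 1 higher and 8 lower, against 40.8% of all 16690 genes, 20.6% higher and 20.2% lower. Libraries of HF and LF did not overlap for 4 members, against 15.8% of all genes.

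Cyp2e1 had 27.3 to 1312 CPM (median 397) in HF eWAT, 884 to 3213 (median 2361) in HFLF eWAT and 1969 to 7260 (median 3658) in LF eWAT. Every HF library lay below every LF library, and it fell by 3.03 ± 0.76 on the log2 scale (edgeR adjusted p = 0.00455). HF libraries themselves differed widely: HF libraries 1 to 6 held 1.53%, 11.6%, 0.992%, 0.451%, 21.7% and 15.3% of the mean level of Cyp2e1 in liver. Cyp2f2 (chr7:27119909-27133660, plus strand) had 0.526 to 2.82 CPM (median 1.56) in HF eWAT, 3.26 to 31.6 (median 6.39) in HFLF eWAT and 9.63 to 147 (median 50.8) in LF eWAT. It fell by 5.27 ± 0.74 on the log2 scale (edgeR adjusted p = 7.88e-05), without overlap. An antisense gene, Gm15883, covers 13.5% of its exon bases, and no source used here gives the strand of counting.

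Cyp2d22 (chr15:82370527-82380260, minus strand) had 29.0 to 59.8 CPM (median 45.5) in HF eWAT, 72.0 to 86.0 (median 77.1) in HFLF eWAT and 80.3 to 117 (median 96.3) in LF eWAT. It fell by 1.08 ± 0.14 on the log2 scale (edgeR adjusted p = 5.2e-05), and HF libraries lay below all others. Cyp2r1, a vitamin D hydroxylase, was the 1 member that rose. It had 2.03 to 3.56 CPM (median 2.55) in HF eWAT, 1.61 to 2.51 (median 2.07) in HFLF eWAT and 0.952 to 1.94 (median 1.61) in LF eWAT, and its log2 fold change was 0.81 ± 0.19 (edgeR adjusted p = 0.0032). These 4 genes passed the test in HF against LF eWAT in every alternative that kept them, with log2 fold changes of -3.66 to -2.78 for Cyp2e1, -5.69 to -4.80 for Cyp2f2, -1.17 to -0.98 for Cyp2d22 and 0.71 to 0.89 for Cyp2r1. Cyp2r1 was not kept by a minimum mean of 5 CPM.

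Markers of other cell types moved with diet in the same libraries. All 8 macrophage markers rose in HF against LF eWAT and summed to 1114 to 6441 CPM (median 3259) in HF, 828 to 2321 (median 1032) in HFLF and 547.0 to 909 (median 670) in LF eWAT. Of 8 adipocyte markers 5 fell (Adipoq fell by 0.82 on the log2 scale and Cfd fell by 3.92) and Lep rose by 1.94. Their sum was 13380 to 34198 CPM (median 23555) in HF, 28055 to 39346 (median 35373) in HFLF and 29444 to 53945 (median 44250) in LF eWAT. The part of this shift in the P450 values was not tested. Against 40.8% of all genes called, 4 of 7 redox partners fell and 2 rose in HF against LF eWAT, with Por lower by 1.12 ± 0.15 (edgeR adjusted p = 6.3e-05). Of 9 genes of heme supply and breakdown, 4 fell (Alad by 1.41 on the log2 scale) and Hmox1, which breaks heme down, rose by 1.72. Of 10 measured receptors and factors 7 fell and 0 rose.

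**Figure D4:**
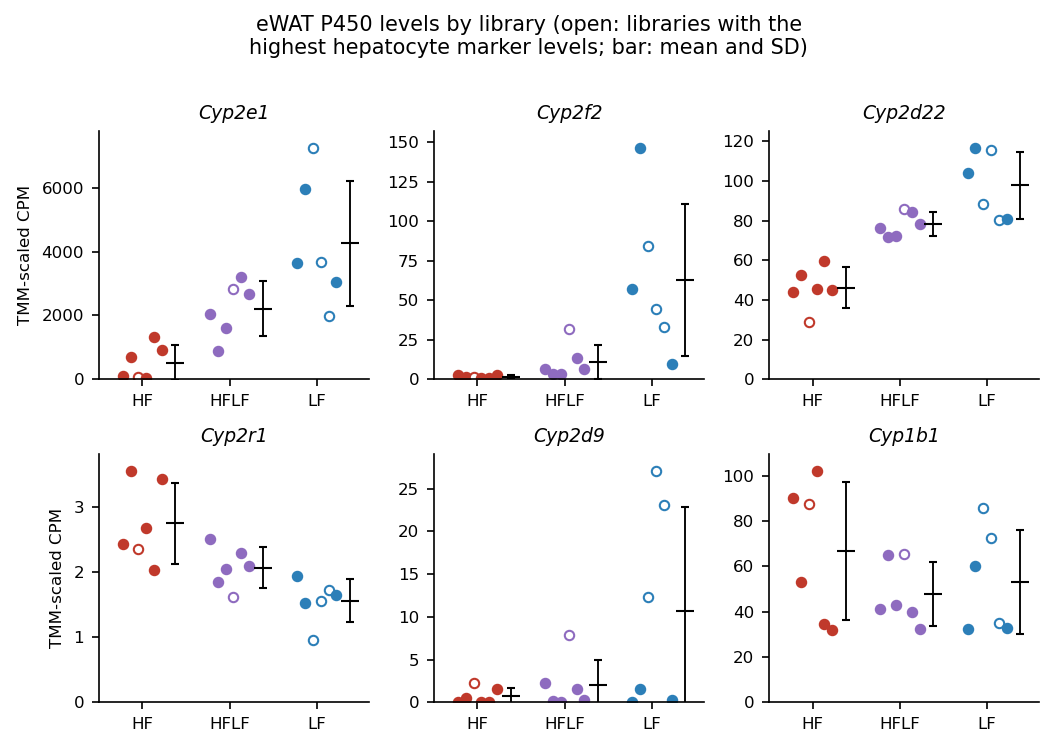
TMM-scaled CPM (y axis, linear from 0) of 6 P450 genes in the 6 HF, 6 HFLF and 6 LF libraries of eWAT (points), with the mean and SD of each diet beside them; open points are the 5 libraries with the highest hepatocyte marker levels. HF points of Cyp2e1, Cyp2f2 and Cyp2d22 lie below all LF points, those of Cyp2r1 lie above them, and Cyp2d9 is high in the open LF points.

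The other 5 members that fell in HF against LF eWAT were low and uneven. Cyp2d9 had 0 to 2.30 CPM (median 0.327) in HF eWAT and 0.0587 to 27.1 (median 6.91) in LF eWAT and fell by 3.81 ± 1.42 on the log2 scale (edgeR adjusted p = 0.0404). Cyp1a2 fell by 3.14 ± 1.10 (edgeR adjusted p = 0.0307), Cyp3a11 by 3.18 ± 1.01 (edgeR adjusted p = 0.0186), Cyp2j5 by 3.42 ± 1.27 (edgeR adjusted p = 0.0394) and Cyp2b10, the classical CAR target, by 1.52 ± 0.54 (edgeR adjusted p = 0.0314). Cyp1a2 and Cyp3a11 were above 0.5 CPM in 0 HF libraries and in 4 and 3 LF libraries, so they were measured through the diets in which they were higher. Cyp2d9 was above it in 3 HF and 4 LF libraries, Cyp2j5 in 1 and 3 and Cyp2b10 in 4 and 6. Cyp2d26 (log2 fold change -2.84 ± 1.15), Cyp2d10 (-2.73 ± 1.25) and Cyp2a12 (-2.37 ± 1.00) did not pass the test.

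Cyp2d9, Cyp1a2, Cyp3a11 and Cyp2j5 are abundant in liver, where Cyp2b10 was not analysed, and hepatocyte markers were also present in eWAT. The median of the 10 hepatocyte markers was 0.62%, 0.353% and 1.31% of their liver mean in LF libraries 3, 4 and 5, and 0.0258%, 0.148% and 0.0376% in LF libraries 1, 2 and 6. Cyp2d9 stood at 0.828%, 1.83% and 1.56% of its liver mean in LF libraries 3, 4 and 5, and at 0.00396%, 0.103% and 0.0205% in LF libraries 1, 2 and 6. Cyp3a11 stood at 0.532%, 0.24% and 1.36% and at 0.0597%, 0.117% and 0.0258% in the same libraries. By contrast, Cyp2e1 stood at 32.5% to 120% of its liver mean over the 6 LF libraries, Cyp2d22 at 25.0% to 36.4% and Cyp2f2 at 1.03% to 15.7%. The hepatocyte markers summed to 7.45 to 189 CPM (median 27.9) in HF, 13.3 to 268 (median 63.5) in HFLF and 38.9 to 1236 (median 213) in LF eWAT, and 4 of the 10 fell in HF against LF eWAT.

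Without HF library 3, HFLF library 4 and LF libraries 3, 4 and 5, an alternative added after seeing the data, 5 of 20 members were called in HF against LF eWAT, 2 higher and 3 lower, against 33.0% of all genes, 17.5% higher and 15.5% lower. Cyp2e1 (-2.78 ± 0.88), Cyp2f2 (-5.46 ± 0.80) and Cyp2d22 (-1.02 ± 0.12) were lower and Cyp2r1 (0.72 ± 0.22) and Cyp2c23 (1.81 ± 0.35) higher. Cyp2c23, an epoxygenase, had a log2 fold change of 0.54 ± 0.44 with all libraries, where LF library 5 held 3.66 CPM and the other LF libraries at most 1.52. Cyp2d9 (-0.41 ± 1.37), Cyp3a11 (-0.66 ± 1.13), Cyp1a2 (-1.22 ± 1.34), Cyp2j5 (-1.27 ± 1.41) and Cyp2b10 (-0.82 ± 0.45) then did not pass. Single libraries sufficed too: the count was 5 without LF library 3, HF library 1 or HF library 4. Of 16690 genes, 6170, 6519 and 5845 were called in those fits. Cyp1a2 lost its call without LF 3 or 5 or HF 1, 2, 4 or 5 (-3.56 to -2.43), Cyp2d9 without LF 3, 4 or 5 or HF 1, 2, 4 or 5 (-4.55 to -3.28) and Cyp2j5 without LF 3, 4 or 5 or HF 1, 2, 4, 5 or 6 (-4.49 to -2.46). Cyp2b10 lost it without LF 2 or 3 or HF 1 or 4 (-1.75 to -0.95), and Cyp3a11 without LF 5 (-3.87 to -2.12).

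**Figure D5:**
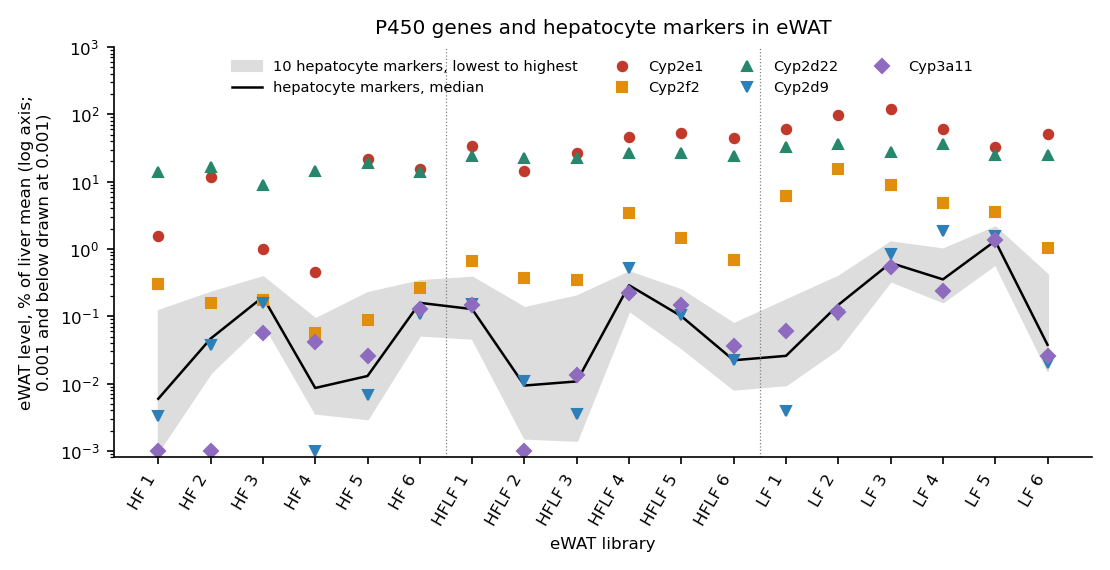
Level of 5 P450 genes in each eWAT library (x axis) in percent of the gene's liver mean (y axis, logarithmic, values of 0.001 and below drawn at 0.001), with the median (line) and range (grey) of 10 hepatocyte markers. Cyp2d9 and Cyp3a11 are highest in LF libraries 3, 4 and 5, while Cyp2e1 and Cyp2d22 lie above it in all 18 libraries.

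In HFLF against LF eWAT, 0 of 20 members passed edgeR's test, against 0.563% of all genes. An unadjusted p under 0.05 was reached by 7 members and by 3028 of 16690 genes. Cyp2f2 came nearest in edgeR, with a log2 fold change of -2.51 ± 0.63 (edgeR adjusted p = 0.0704), and it was called without LF library 5, LF library 6 or HFLF library 4. DESeq2, which called 4.35% of all genes and 2.09% lower, and limma voom with quality weights, which called 3.86% and 1.89% lower, called Cyp2f2 as their 1 member. Groups did not overlap for 0 members, against 2.56% of all genes. Cyp2e1 had a log2 fold change of -0.95 ± 0.71 (edgeR adjusted p = 0.485).

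In HFLF against HF eWAT, 3 of 20 members changed (15%), all higher, against 25.4% of all genes, 10.7% higher and 14.7% lower. Cyp2d22 rose by 0.76 ± 0.14 (edgeR adjusted p = 0.00189), Cyp2f2 by 2.76 ± 0.69 (edgeR adjusted p = 0.00851) and Cyp2e1 by 2.09 ± 0.73 (edgeR adjusted p = 0.0447). HFLF libraries lay above all HF libraries for Cyp2d22 and Cyp2f2, which makes 2 members, against 9.44% of all genes. Without HF library 3, HFLF library 4 and LF libraries 3, 4 and 5, 2 members were called, both higher (Cyp2d22 by 0.63 ± 0.11, edgeR adjusted p = 0.00498, and Cyp2u1 by 0.38 ± 0.12, edgeR adjusted p = 0.0416), against 18.9% of all genes and 8.2% higher. Cyp2f2 (2.06 ± 0.72, edgeR adjusted p = 0.0639) and Cyp2e1 (1.77 ± 0.79, edgeR adjusted p = 0.132) were not among them. The call of Cyp2e1 (1.84 to 2.61) was lost without HF 1, 2, 3 or 4 or HFLF 1, 3, 4, 5 or 6. Without HF library 5 the count was 5, against 5314 of 16690 genes. All 8 macrophage markers fell in the same comparison, and of 8 adipocyte markers 4 rose and 1 fell. The part of these markers in the P450 values was not tested. Cyp2r1 had a log2 fold change of -0.41 ± 0.19 (edgeR adjusted p = 0.125).

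Other members measured in eWAT did not pass the test between diets with all libraries. Cyp1b1, which oxidizes oestrogens and is induced through AhR, had 32.0 to 102 CPM (median 70.5) in HF eWAT, 32.5 to 65.7 (median 42.1) in HFLF eWAT and 32.4 to 85.7 (median 47.6) in LF eWAT, against a liver mean of 1.21 CPM. Its log2 fold change in HF against LF eWAT was 0.34 ± 0.33 (edgeR adjusted p = 0.438). Cyp2j6 had 14.7 to 29.5 CPM (median 23.4) in HF eWAT, 25.2 to 29.2 (median 28.3) in HFLF eWAT and 25.3 to 31.2 (median 27.3) in LF eWAT (log2 fold change -0.25 ± 0.13, edgeR adjusted p = 0.129), against a liver mean of 67.1 CPM. Cyp2s1, an enzyme of epithelia, had 3.65 to 23.5 CPM (median 9.07) in HF and 3.71 to 20.3 (median 10.9) in LF eWAT. Cyp2u1, a fatty acid hydroxylase, Cyp2j9 and Cyp2t4 had log2 fold changes between -0.44 and 0.12 in HF against LF eWAT.

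The effect of diet on P450 genes differed between the tissues. In a test of the difference itself (liver effect minus eWAT effect, edgeR interaction over 13206 genes), 12 of the 17 members measured in both tissues differed for HF against LF (70.6%), against 45.6% of all genes. The model treats the libraries of the tissues as independent, and the labels do not say whether same-numbered libraries came from 1 mouse. In 11 of the 12 the effect was higher in liver and in 1 lower, against 24.6% and 21% of all genes, with differences of 0.50 for Cyp2j6 to 4.97 for Cyp2f2 on the log2 scale. For Cyp2e1, which rose in liver and fell in eWAT, the difference was 3.82 ± 0.78 (edgeR adjusted p = 0.00024), and for Cyp2d22, with the same 2 directions, it was 1.52 ± 0.21 (edgeR adjusted p = 2.33e-06). Cyp2r1 was the 1 member that differed the other way, by -0.88 ± 0.19 (edgeR adjusted p = 0.000374). Without liver LF libraries 1 to 4, 6 members differed, 5 higher and 1 lower in liver, against 22.9% of all genes, 12.2% higher and 10.7% lower. The split changed without the 5 eWAT libraries with the highest hepatocyte marker levels, where 6 members differed, 3 higher and 3 lower in liver, against 38% of all genes, 17.5% higher and 20.5% lower. Cyp2c70 (-2.88) and Cyp2c23 (-2.03) were then lower in liver besides Cyp2r1, and the median difference over the 17 members was 0.38, against 2.76 with all libraries. Cyp2e1 (3.39 to 4.93), Cyp2f2 (4.70 to 5.11), Cyp2d22 (1.14 to 1.56) and Cyp2r1 (-0.94 to -0.86) passed the test in all 4 alternatives run. For HFLF against HF, 3 of 17 differed (17.6%), against 18.0% of all genes, and all 3 were lower in liver, against 8.78% of all genes: Cyp2f2 by -2.72 ± 0.66 (edgeR adjusted p = 0.006), Cyp2e1 by -2.35 ± 0.76 (edgeR adjusted p = 0.0301) and Cyp2d22 by -0.92 ± 0.21 (edgeR adjusted p = 0.00338). Without the 5 eWAT libraries with the highest hepatocyte marker levels the difference for Cyp2e1 was -1.997 (edgeR adjusted p = 0.0638).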

How the data were processed

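RNA was measured by RNA-seq of total RNA in 36 libraries, 6 for each of 3 diets in liver and in eWAT. The authors deposited gene counts per library, and per the submitters' processing notes reads were aligned with STAR to GRCm38.p6. Which tool counted reads, with which annotation and strand setting, was not given in the sources used here. The deposited count tables hold genes that exceeded 0.5 CPM in 6 or more of a tissue's 18 libraries. Tables of a second, length-scaled kind were not used.

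Counts were scaled by TMM and tested with edgeR's quasi-likelihood test (edgeR 4.0.16, R 4.3.3, robust), with 1 model per tissue over the 3 diets and p-values adjusted by Benjamini-Hochberg over every gene of that tissue's table. A gene was called at an adjusted p under 0.05. The difference between tissues was the interaction in 1 model over the 13206 genes of both tables. Alternatives used other scalings and filters, DESeq2 1.42.0, limma 3.58.1, a replicate block and fits without libraries. The test was checked on simulated counts. Every member may be named, and the members and lists were chosen with earlier results of these data known. No cause was tested.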

Additional observations from a re-analysis of the deposited data

Results flagged for a closer look

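Single libraries stood apart from the other 5 of their group in 20 of 174 groups of 6 examined, by Dixon's gap test at the 95% level, where chance alone flags about 1 in 20 groups. In liver HF library 2 was the highest of its group for Cyp2a5 (631 CPM), Cyp2c37 (299.7 CPM), Cyp2c40 (1.21 CPM) and Cyp2g1 (2.12 CPM), and HF library 1 the lowest for Cyp2c23 (112 CPM) and Cyp2d10 (507 CPM). HFLF library 2 was the highest for Cyp2d26 (1085 CPM) and HFLF library 4 the lowest for Cyp2c70 (284.5 CPM). LF library 3 was the highest for Cyp2c40 (5.97 CPM), Cyp2c69 (3.28 CPM) and Cyp2g1 (0.586 CPM), and LF library 6 for Cyp2d10 (741 CPM).

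In eWAT HF library 3 was the highest of its group for Cyp2s1 (23.5 CPM) and Cyp2j5 (0.602 CPM), and HF library 2 for Cyp2c23 (3.07 CPM). HFLF library 4 was the highest for Cyp2f2 (31.6 CPM), Cyp2d9 (7.84 CPM), Cyp2d26 (3.78 CPM) and Cyp2c70 (1.71 CPM). LF library 5 was the highest for Cyp2c23 (3.66 CPM). HF library 3, HFLF library 4 and LF library 5 are among the 5 eWAT libraries with the highest hepatocyte marker levels, and the part of that in these values was not tested.

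The effect of diet differed between the tissues for 12 members in HF against LF, by edgeR's interaction test. The difference, liver minus eWAT on the log2 scale, was 4.97 for Cyp2f2, 4.23 for Cyp2d9, 3.82 for Cyp2e1, 3.77 for Cyp2j5, 3.48 for Cyp2d26 and 3.32 for Cyp1a2. It was 2.96 for Cyp2d10, 2.85 for Cyp3a11, 2.76 for Cyp2a12, 1.52 for Cyp2d22, 0.50 for Cyp2j6 and -0.88 for Cyp2r1. Cyp2f2, Cyp2e1, Cyp2d22 and Cyp2r1 also passed the test without the 5 eWAT libraries with the highest hepatocyte marker levels. Without those libraries Cyp2d9, Cyp2j5, Cyp2d26, Cyp1a2, Cyp2d10, Cyp3a11, Cyp2a12 and Cyp2j6 did not pass. Their differences were then -0.21 (Cyp2a12) to 1.42 (Cyp2j5), and the cause was not tested. In HFLF against HF the difference with all libraries was -2.72 for Cyp2f2, -2.35 for Cyp2e1 and -0.92 for Cyp2d22.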

How the results depend on the processing

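Numbers of members called, and of all genes called, depended on which libraries were kept and on the test. The tests covered 14052 genes in liver, 16690 in eWAT and 13206 for the tissue difference unless stated. In HF against LF livers 20 members and 4891 genes were called. Without LF libraries 1 to 4 these were 0 and 297, and without only LF libraries 1 and 2 they were 12 and 2742. Leaving out 1 library gave 14 to 22 members and 3786 to 5473 genes. In HFLF against LF livers 4 members and 3176 genes were called. Under the same settings these were 0 and 26, and then 1 and 1396. With 1 library left out they were 2 to 5 members and 2130 to 3918 genes. In HFLF against HF livers 3 members and 735 genes were called. These were 6 and 1322 (of 13230) with DESeq2 and 11 and 1729 with limma voom and quality weights. Without LF libraries 1 to 4 they were 5 and 1355, and with 1 library left out 1 to 5 and 215 to 1036. In HF against LF eWAT 9 members and 6817 genes were called. These were 5 and 6195 with limma voom, and 3 of 8 and 5433 of 11672 at a mean CPM of at least 5. Without the 5 libraries with the highest hepatocyte marker levels they were 5 and 5511. Leaving out 1 library gave 5 to 11 members and 5845 to 7113 genes. In HFLF against LF eWAT 0 members and 94 genes were called. These were 1 and 704 (of 16172) with DESeq2 and 1 and 644 with limma voom. With 1 library left out they were 0 to 1 and 0 to 341. In HFLF against HF eWAT 3 members and 4242 genes were called. These were 1 and 1390 once 6 libraries (LF 3, 4, 5, HF 1, HFLF 4, 6) were left out. With 1 library left out they were 2 to 5 and 3075 to 5314. The tissue difference in HF against LF held 12 members and 6019 genes. Without liver LF libraries 1 to 4 these were 6 and 3025, and without the 5 eWAT libraries 6 and 5016.

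Signs turned for 6 values called either as reported or in the alternative. Cyp3a13 in HF against LF livers was 0.036 without LF libraries 1 to 4. With the same 6 eWAT libraries left out, HF against LF eWAT gave 0.071 for Cyp2j5, 0.62 for Cyp2d9 and 1.76 for Cyp2c70. The tissue difference was -0.21 for Cyp2a12 and -0.056 for Cyp2d10 without the 5 eWAT libraries. The causes were not tested. Of the members not called as reported, 5 of 18 in HF against LF, 21 of 34 in HFLF against LF and 10 of 35 in the HFLF and HF pair of livers had the other sign in at least 1 alternative, as did 6 of 11, 12 of 20 and 7 of 17 in eWAT, and 2 of 5 and 0 of 14 for the tissue difference.

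With a replicate block the liver counts were 19 (HF and LF), 4 (HFLF and LF) and 3 (HFLF and HF). Of all 14052 genes 4758, 3020 and 444 were then called. In eWAT they were 4, 0 and 2, against 6394, 15 and 4002 of 16690 genes. A block in limma voom gave 8 and 2 members for the tissue difference in HF against LF and HFLF against HF. EdgeR with no block gave 12 and 3. Of 13206 genes, limma voom with the block called 5743 and 2163, and edgeR 6019 and 2372. Within a tissue the numbers did not pair the diets: 2 of 6 same-numbered pairs of HF and LF libraries had deviations correlated above 0.1 in each. Between the tissues, 2 of 6 HF, 1 of 6 HFLF and 3 of 6 LF pairs were above 0.1, and 2, 3 and 5 liver libraries correlated best with the eWAT library of their own number. The 6 LF pairs were all positive (0.052 to 0.16), as were the 6 HFLF pairs (0.0053 to 0.13), while the HF pairs ran from -0.040 to 0.14. These values are a hint from the data and not the design. Members near 1 CPM rest on few counts, and intervals that rest on them are wide.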
